A study of Mus musculus with 12 samples.

Results

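Accessible chromatin of Aire-deficient medullary thymic epithelial cells was compared with that of wild-type cells whose peak lists have almost the same length. The comparison used 4 of the 12 ATAC-seq libraries of the series. The knockout group held 2 libraries from Aire -/- mice. The wild-type group held 2 libraries from Aire +/+ mice titled as partners of the Aire +/C442G heterozygotes, here called the C442G-set wild types. All 4 came from sorted mTEChi of C57BL/6 animals aged 4 to 7 weeks, and the labels do not say whether animals were pooled, how the knockout allele was made or which part of the gene it lacks. The pair was chosen on list length: the knockout lists held 84037 and 93198 peaks on chromosomes 1 to 19 and the C442G-set wild types 91851 and 92618, whereas the 2 wild types titled like the knockout (the KO-set wild types) held 33933 and 33502. Knockout and C442G-set libraries belong to different sets, so genotype and set cannot be told apart in any difference below. The other 8 libraries served only as a reading of the regions found: the KO-set wild types, 2 Aire +/C313Y heterozygotes with 2 wild types of their own, and 2 Aire +/C442G heterozygotes. Each list was reduced to its strongest 85000 autosomal peaks by −log10 p. The list of knockout replicate 1 is shorter than that and was used whole. Overlapping peaks were merged, which gave 138063 regions, and each region was then scored as called or not called in each library.

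ATAC-seq reads out where a transposase can insert into chromatin, so a peak marks a stretch that was open in many of the cells. mTEChi are mature medullary thymic epithelial cells with high levels of MHC class II and CD80. They express AIRE, the autoimmune regulator, a nuclear protein that drives the ectopic expression of many tissue-restricted antigens, which are shown to developing T cells to induce tolerance. AIRE binds unmodified histone H3 tails and acts with topoisomerases, DNA repair proteins and elongation factors, largely by releasing paused polymerase. Its own gene depends on NF-kB signals that reach these cells through the TNF-family receptors RANK, CD40 and the lymphotoxin beta receptor.

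The promoters of 6 genes on which the results turn are shown here, each as the 250 bases before the annotated start, 5′ to 3′, from RefSeq for GRCm38.p6 (coordinates shared with mm10). Aire (chr10:78043611-78043860, minus strand) had a peak over its start in all 4 libraries. Krt5 (chr15:101712906-101713155, minus strand), Ccl20 (chr1:83116516-83116765, plus strand) and Trpv3 (chr11:73267270-73267519, plus strand) had a peak in this stretch in both C442G-set wild types and neither knockout. Pdcd1lg2 (chr19:29410669-29410918, plus strand) and Wnt11 (chr7:98834862-98835111, plus strand) had one there in both knockouts and neither C442G-set wild type. The peaks of Krt5, Trpv3 and Wnt11 crossed the start, whereas those of Ccl20 and Pdcd1lg2 stopped short of it. Capitals mark matches to 6 motifs, sought on both strands, and overlapping matches run together. The AP-1 motif was searched as TGANTCA, the site of Fos and Jun dimers. The GC box, bound by Sp factors, was searched as GGGCGG. The core promoter box of nuclear factor Y was searched as CCAAT and the TATA box, which places the polymerase, as TATAAA. The CRE, bound by CREB, was searched as TGACGTCA, and the NF-kB motif is given by name.
Aire: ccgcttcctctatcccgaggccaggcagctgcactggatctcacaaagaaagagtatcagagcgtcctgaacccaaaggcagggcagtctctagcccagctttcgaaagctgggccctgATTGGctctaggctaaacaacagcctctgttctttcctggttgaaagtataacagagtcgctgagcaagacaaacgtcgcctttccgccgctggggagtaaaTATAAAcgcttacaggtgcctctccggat
Krt5: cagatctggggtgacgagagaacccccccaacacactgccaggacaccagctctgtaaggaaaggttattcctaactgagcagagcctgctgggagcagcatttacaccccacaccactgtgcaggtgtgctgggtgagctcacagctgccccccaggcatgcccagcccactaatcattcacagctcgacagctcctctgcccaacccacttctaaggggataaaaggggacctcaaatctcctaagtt
Ccl20: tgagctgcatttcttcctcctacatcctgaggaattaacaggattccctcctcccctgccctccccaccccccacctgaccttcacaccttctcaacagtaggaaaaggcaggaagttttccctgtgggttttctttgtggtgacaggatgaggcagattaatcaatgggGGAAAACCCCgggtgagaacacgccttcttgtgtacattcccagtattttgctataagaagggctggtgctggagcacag
Trpv3: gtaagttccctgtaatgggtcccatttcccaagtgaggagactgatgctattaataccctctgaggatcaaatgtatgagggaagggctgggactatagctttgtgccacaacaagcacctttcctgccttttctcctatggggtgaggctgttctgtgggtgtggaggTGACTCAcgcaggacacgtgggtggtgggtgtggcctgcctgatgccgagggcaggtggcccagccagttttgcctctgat
Pdcd1lg2: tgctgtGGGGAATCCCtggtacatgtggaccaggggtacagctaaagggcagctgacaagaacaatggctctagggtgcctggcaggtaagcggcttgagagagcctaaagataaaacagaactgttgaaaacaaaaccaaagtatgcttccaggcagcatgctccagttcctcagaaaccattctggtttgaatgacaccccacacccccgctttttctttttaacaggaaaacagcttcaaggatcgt
Wnt11: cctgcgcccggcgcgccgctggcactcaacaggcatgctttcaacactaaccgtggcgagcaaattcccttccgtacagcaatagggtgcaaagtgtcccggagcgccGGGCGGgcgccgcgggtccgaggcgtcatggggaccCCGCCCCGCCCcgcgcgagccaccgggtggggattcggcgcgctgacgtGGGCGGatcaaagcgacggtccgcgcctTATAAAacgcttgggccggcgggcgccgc
The TATA box of Aire, at position −29 from the start, was inside a peak in 4 of 4 libraries. The AP-1 match of Trpv3 at −81 and the NF-kB match of Ccl20 at −80 were each inside the peak of both C442G-set wild types. The NF-kB match of Pdcd1lg2 at −244 was inside the peak of both knockouts, as were the TATA box of Wnt11 and 1 of its 4 GC boxes. Krt5 held no match to these letters in this window. A match is a description of letters, and binding was not measured.

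The knockout lists reached weaker peaks: the lowest −log10 q used was 1.001 and 1.058 in the knockouts and 1.30 and 1.52 in the C442G-set wild types, without overlap. No read counts were used, so the depth behind each list is unknown, and a region without a peak was not detectable as a peak rather than closed. Fold, −log10 p and −log10 q of a peak are the authors' values. They were used to rank peaks within a list, and a percentile below is the rank of a peak in its own list, 100 being the strongest. Knockout peaks were narrower, with a median width of 141 and 154 bp (147.5 ± 9.19, SD, n = 2) against 179 and 175 bp (177 ± 2.83, n = 2). The lists covered 17.2 and 18.7 Mb in the knockouts and 22.0 and 21.6 Mb in the C442G-set wild types, a difference of −3.85 Mb. Neither pair of values overlapped, and both differences reached the smallest value that an exact two-sided permutation test of 2 against 2 libraries allows (p = 0.333, Benjamini-Hochberg adjusted p = 0.5, with 3 measures in the family). The share of peaks near gene ends (1 kb or less) was 17.3% and 17.8% against 17.7% and 17.9%, a difference within the spread between replicates (exact permutation p = 0.667). These p-values measure the spread between libraries, which may be technical, since the labels do not name separate animals.

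Both groups shared most of their strong sites, and the sites of 1 pair only were a small part of the merged regions. All 4 libraries called 47789 regions (34.6%). Knockout-only regions, called in both knockouts and neither C442G-set wild type, numbered 4313, or 3.12% of the 138063. Wild-type-only regions, the reverse case, numbered 8101, or 5.87%. Many more regions rested on 1 library: 17410 and 14087 were called in 1 knockout alone, and 11536 and 10701 in 1 C442G-set wild type alone. The knockout replicates shared 53.6% of the regions either of them called, the C442G-set wild types 64.5%, and the 4 pairs across groups 50.5% to 55.6%. Thus the 2 knockouts were no closer to each other than knockout replicate 2 was to the C442G-set wild types (54.6% and 55.6%). With absence judged in the complete lists, 3721 knockout-only and 7681 wild-type-only regions remained. Both counts rest on every library: leaving out 1 of the 4 gave 6912 to 21884 knockout-only and 11886 to 19983 wild-type-only regions, the highest without knockout replicate 2 and C442G-set replicate 2.

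Regions of either pair were placed much like the other regions not called in all 4 libraries. Of the knockout-only regions 6.28% reached to 1 kb or less from the annotated end of a coding gene, 53.1% were intragenic and 40.6% intergenic. Of the wild-type-only regions 7.75% were near a gene end, 48.7% intragenic and 43.5% intergenic. Regions called in all 4 libraries divided into 25.1%, 39.4% and 35.5%, and the 77860 regions called in any other combination into 6.63%, 51.5% and 41.9%. Over every merged region the near-end share was 13.1%. The gap of −1.47 percentage points in the near-end share between both directions turned to 1.21 when the strongest peaks were taken by fold and to 0.214 without the second C442G-set wild type, so its direction is not fixed. Knockout-only regions had a median width of 172 bp, wild-type-only regions 199 bp regions called in all 4 libraries 362 bp and those of any other combination 113 bp.

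**Figure D1:**
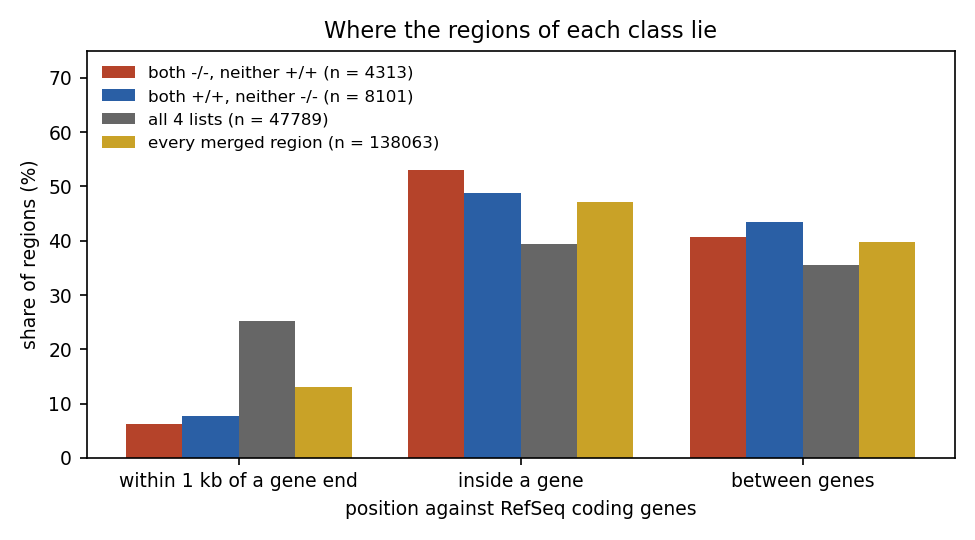
Share of regions (vertical axis, %) close to a gene end, intragenic or intergenic, for knockout-only, wild-type-only and shared regions and for every merged region. Bars of both one-pair classes stand at 6.28% and 7.75% near gene ends, below the 25.1% of regions called in all 4 libraries.

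The one-pair regions were weak peaks in the libraries that called them. The lower of a region's 2 own percentiles had a median of 21.5 in knockout-only and 19.2 in wild-type-only regions. Among all regions called in both knockouts, 7.47% were absent from both C442G-set wild types. That share was 3.89% where both peaks were in the upper 75% of their lists, 1.12% (365 of 32700) in the upper 50%, 0.103% (17 of 16542) in the upper 25% and 0.0310% (2 of 6458) in the upper 10%. In the reverse direction it was 12.3%, 6.13%, 1.73% (598 of 34658), 0.127% (22 of 17371) and 0.0151% (1 of 6611). In the upper 10%, neither direction held more than 2 such regions.

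**Figure D2:**
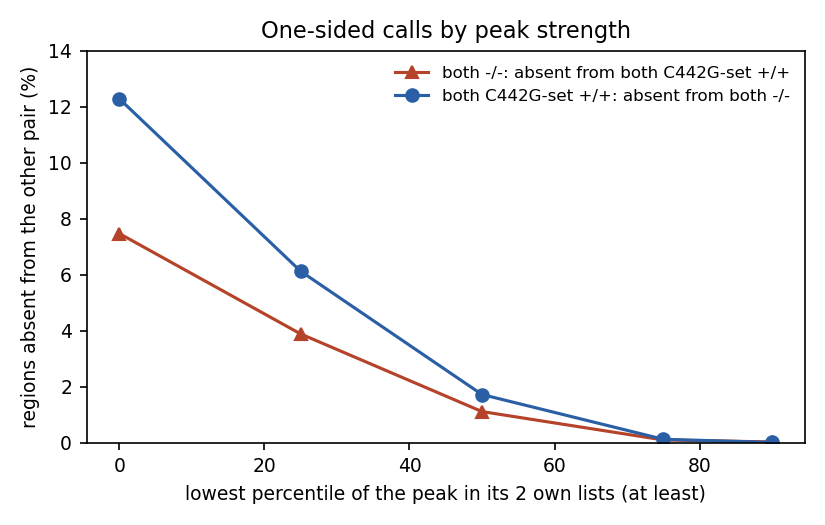
Regions called in both libraries of a pair (horizontal axis, the percentile that both peaks at least reach in their own lists) and the share of them absent from both libraries of the other pair (vertical axis, %). The share decreases from 7.47% to 0.0310% for the knockouts and from 12.3% to 0.0151% for the C442G-set wild types.

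The strongest knockout-only region absent from the complete wild-type lists was a 68 bp stretch between genes at chr2:90395131-90395198, 5442 bp from Olfr1274, an olfactory receptor gene. Its authors' fold was 18.5 and 24.0, at percentile 99.8 and 99.9, and none of the other 8 libraries had a peak there. The next was chr17:6429876-6430294 at an end of Dynlt1b, a dynein light chain gene, with fold 10.8 and 10.1. It had a peak in both KO-set wild types and in 4 of 4 C313Y-set libraries but in neither Aire +/C442G library, so both C442G-set genotypes lacked it. A peak at chr13:21811733-21811869 by the histone genes H4c17 and H2ac23 (fold 9.05 and 9.30) was called in 5 of the other 8 libraries, none of them Aire +/C442G. Regions inside Lin28a, which encodes an RNA-binding protein that blocks let-7 processing (fold 7.19 and 8.02), and inside Dvl2, a transducer of Wnt signals (fold 7.94 and 6.86), were each called in 1 Aire +/C313Y and both Aire +/C442G libraries and in no other wild type. The libraries that called these regions have the longest lists of the other 8. A region inside Adam23, which encodes a neuronal cell-surface protein (fold 9.23 and 8.11), was called in 5 of the other 8.

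The strongest wild-type-only region absent from the complete knockout lists was a 90 bp stretch at chr2:98663812-98663901, 1032140 bp from its nearest coding gene, Lrrc4c. Its fold was 1.86 and 1.95 although it stood at percentile 87.4 and 88.4, and none of the other 8 libraries had a peak there. Here no list was filtered for repeats or artefact-prone stretches. Whether this stretch, or the knockout-only one near Olfr1274, is a mapping artefact was not tested. The next, at chr5:15040106-15040253, lies between genes (fold 9.36 and 8.86) and was called in both Aire +/C442G libraries and no others. A region inside Sfi1, a centrosome gene, at chr11:3162406-3162764 had fold 6.73 and 9.16. It was also called in both KO-set wild types, 1 C313Y-set wild type and both Aire +/C442G libraries, 5 of the other 8. Whether the Sfi1 region is a mapping artefact was not tested either. Regions inside Mafk, which encodes a small Maf transcription factor (fold 6.75 and 6.49), and Prss41, a serine protease gene (fold 9.30 and 7.64), were each called in both C313Y-set wild types, 1 Aire +/C313Y and both Aire +/C442G libraries, 5 of the other 8. At Mafk and Prss41 the 2 KO-set wild types sided with the knockouts.

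In the 8 libraries that the rule did not use, wild-type-only regions were called more often than knockout-only regions, whatever the genotype. The KO-set wild types, whose lists are short, called 3.29% and 3.32% of the knockout-only and 4.72% and 5.54% of the wild-type-only regions. The Aire +/C442G libraries, whose lists are the longest, called 70.2% and 68.9% against 79.2% and 77.2%. At least 1 of them called 83.1% of the knockout-only regions, which by construction their own set's wild types had not called. Of the regions called in all 4 libraries, the KO-set wild types had 54.8% and 56.7% and the Aire +/C442G libraries 99.5% and 99.4%. At least 1 KO-set wild type called 6.03% of the knockout-only and 9.60% of the wild-type-only regions, a gap of −3.58 points that became 2.40 and 4.67 when the regions were chosen without C442G-set replicate 1 or 2, and −9.39 and −12.7 without knockout replicate 1 or 2. For at least 1 Aire +/C442G library the gap of −6.80 points became 16.5 and 20.7, and −39.0 and −56.9. With a library left out, the regions of that group rest on 1 list while those of the other still need 2, which moves the gap by construction. Any of the 4 other wild types called 21.6% of the knockout-only and 42.9% of the wild-type-only regions. Any of the 8 called 87.2% and 93.4%.

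The C313Y set holds both a mutant and a wild-type genotype outside the sets compared, with lists of overlapping length. Its heterozygotes called 26.8% and 13.9% of the knockout-only and 32.4% and 18.8% of the wild-type-only regions. Its wild types called 11.7% and 8.72% against 27.8% and 22.4%. The share of knockout-only divided by the share of wild-type-only regions was 0.829 and 0.739 in the heterozygotes (mean 0.784 ± 0.0641, SD, n = 2) and 0.422 and 0.390 in the wild types (0.406 ± 0.0228, n = 2). The groups did not overlap, and the difference of 0.378 reached the smallest p that 2 against 2 allows (exact two-sided permutation p = 0.333). It was 0.429 for regions in the upper 50% of their own lists, 0.138 and 0.0619 when the regions were chosen without knockout replicate 1 or 2, and 0.666 and 0.747 without C442G-set replicate 1 or 2. The same ratio was 0.698 and 0.598 in the KO-set wild types and 0.886 and 0.892 in the Aire +/C442G libraries. This measure was chosen after the data had been seen.

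**Figure D3:**
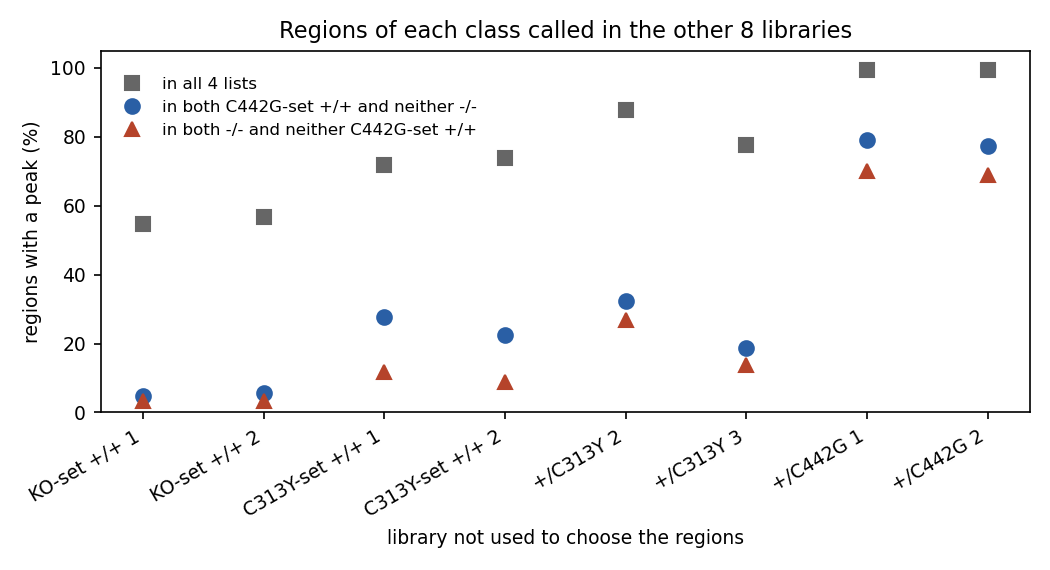
Share of knockout-only, wild-type-only and shared regions (vertical axis, %) with a peak in each of the 8 libraries that did not choose them (horizontal axis; 1 point per library and class). Wild-type-only regions lie above knockout-only regions in each of the 8, by little in the KO-set wild types (3.29% against 4.72% in replicate 1) and by more in the C313Y-set wild types (11.7% against 27.8% in replicate 1).

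At Aire itself (chr10:78030022-78043610), 4 regions at or near the gene ends were called in all 4 libraries. The region across the promoter end, chr10:78043452-78043805, had fold 5.95 and 5.99 in the knockouts and 7.72 and 6.83 in the C442G-set wild types, at percentile 86.1 and 86.0 against 96.3 and 91.5. Both knockout peaks ranked below both wild-type peaks. A region 2613 bp beyond this end, chr10:78046223-78047018, ranked the other way, at 68.0 and 72.3 in the knockouts and 61.2 and 58.0 in the wild types. On the far side of the gene, chr10:78028236-78028486 stood at 71.6 and 72.6 against 92.3 and 83.5. Well inside the gene 2 weak regions were called, each in 1 knockout (percentile 9.07 and 32.6). The 1 wild-type-only region near the gene, chr10:78054728-78055094, had fold 3.32 and 4.00 and no peak in the other 8 libraries. The promoter peak is no check of genotype, since the extent of the deletion is not visible in peak lists. Within 1 Mb of the gene 5 of 221 regions were knockout-only and 16 wild-type-only, shares of 2.26% and 7.24%. Over all 138063 regions the shares were 3.12% and 5.87%. Within 5 Mb of the gene they were 2.29% and 5.42% of 960 regions.

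Among 26 genes of mTEC identity and antigen presentation, 17 had a gene-end peak, one that reaches to 1 kb or less from either end, in all 4 libraries, 1 was knockout-only and 1 wild-type-only. Over all 20665 autosomal coding genes, 111 (0.537%) were knockout-only by this gene-end measure and 245 (1.19%) wild-type-only. Of the MHC class II genes, H2-Aa and H2-Ab1 ranked higher in both C442G-set wild types. H2-Aa stood at percentile 87.6 and 87.2 in the knockouts and 96.8 and 94.4 in the wild types, and H2-Ab1 at 90.4 and 86.5 against 94.3 and 94.3. Cd74, the invariant chain of class II molecules, followed at 93.9 and 94.5 against 96.4 and 96.2, while the ranks of H2-Eb1 overlapped between the groups. Fold was separated at H2-Aa (5.35 and 5.32 against 6.94 and 6.75). It overlapped between the groups at H2-Ab1 (5.41 and 4.89 against 5.38 and 6.11) and Cd74 (5.60 and 5.93 against 5.38 and 5.69). Ccl17, a chemokine gene of mature mTEC, stood at 84.6 and 43.7 against 93.6 and 88.3. Cldn3 and Cldn4, which encode tight-junction claudins of mTEC, also ranked higher in both wild types (Cldn4 57.8 and 56.0 against 78.7 and 70.3).

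Other genes of the same list ranked higher in both knockouts. Epcam, the epithelial adhesion molecule, stood at percentile 86.8 and 90.4 in the knockouts and 67.3 and 68.6 in the C442G-set wild types, where the overlapping peak was wider and reached over the start. Ctss, the protease that trims the invariant chain, stood at 76.1 and 65.9 against 18.7 and 35.0, and Cd86, a T-cell costimulatory ligand, at 42.6 and 67.3 against 0.331 and 20.4. Ltbr stood at 78.0 and 89.0 against 54.9 and 72.4, and Cd40 at 84.1 and 84.4 against 83.2 and 78.7. Cd80 had a gene-end peak in 1 C442G-set wild type only (percentile 14.3), and Ciita, Ccl19, Ccl21a and Ccl22 had none in these 4 libraries. The measure misses any peak further inside a gene, including at an internal start. Ldha, of the list of constitutive genes, had no gene-end peak either. In number, 6 of 17 (35.3%) ranked higher in both knockouts and 7 of 17 (41.2%) in both wild types. The shares of all genes called in all 4 libraries were 29.6% and 20.7%. The 6 include Psmb11, which is also in the list of cortical epithelial markers and whose leading peaks lay at different sites. Among the 15 genes whose 4 leading peaks shared at least 1 base, 5 ranked higher in both knockouts and 7 in both wild types.

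Pdcd1lg2, which encodes the inhibitory ligand PD-L2, was the knockout-only gene of this list. Its peaks, whose promoter is shown above, had fold 4.37 and 4.59 at percentile 55.1 and 52.7. No other wild type had one, whereas 1 Aire +/C313Y and both Aire +/C442G libraries did. Outside the 4 libraries compared it was thus called in 3 of 4 heterozygotes and 0 of 4 wild types. Those 3 lists are also the longest outside the comparison, with 74167, 120031 and 112808 autosomal peaks against 71554 or fewer. Genotype and list length therefore cannot be told apart here. Cd274, its paralog PD-L1, was called in all 4 at percentile 94.9 or above. Krt5, a keratin of medullary epithelium, was the wild-type-only gene, with fold 4.38 and 4.73 at percentile 56.3 and 58.5. It was also called in all 4 C313Y-set and both Aire +/C442G libraries, and in neither KO-set wild type, whose lists are short. The 4 libraries of the knockout set, mutant and wild type alike, were thus the ones without a Krt5 call.

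**Figure D4:**
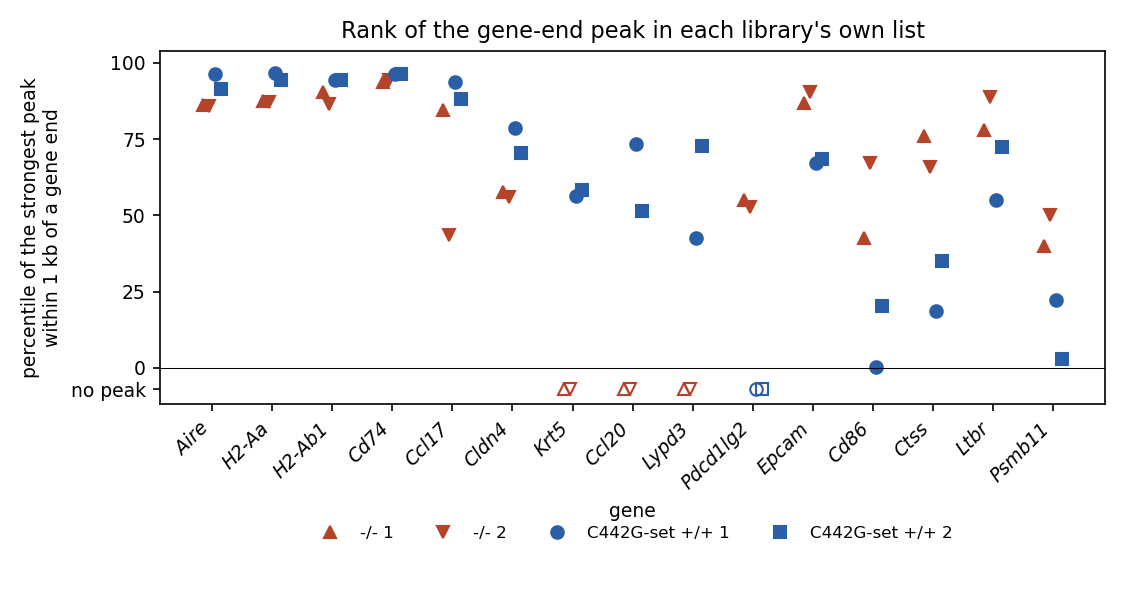
Percentile (vertical axis) of the strongest gene-end peak in each library's own list, for 15 genes named in the text; triangles are the 2 knockouts, circles and squares the 2 C442G-set wild types, and open symbols mark no peak. Aire, H2-Aa, H2-Ab1, Cd74, Ccl17 and Cldn4 lie higher in both wild types, and Epcam, Cd86, Ctss, Ltbr and Psmb11 in both knockouts; the Psmb11 peaks of the groups lie at different sites.

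The rank order was then read for every gene with a gene-end peak in all 4 libraries. Of these 11907 genes, 3520 (29.6%) ranked higher in both knockouts than in either C442G-set wild type and 2459 (20.7%) ranked lower in both. No single gene can pass a test with 2 libraries a group. The median gene moved by 0.481 percentile points. Lists of equal length gave 3550 and 2419, and genes whose 4 leading peaks shared at least 1 base gave 3254 and 2245. Against these shares, the interferon-induced genes stood on the wild-type side, with 7 of 15 higher in both C442G-set wild types and 2 of 15 in both knockouts. Isg15, a ubiquitin-like antiviral protein, stood at percentile 35.2 and 35.1 in the knockouts and 68.8 and 59.1 in the wild types. Gbp2, a guanylate-binding protein, stood at 15.98 and 42.0 against 58.3 and 56.7, and Rsad2, the antiviral protein viperin, at 74.3 and 77.9 against 92.2 and 88.3. Ifit2, Gbp3, Oas1a and Irf7 were ordered the same way, although the leading peaks of Ifit2 lay at different sites. Stat2, the signal transducer of type I interferon, and Irf1 were ordered the other way.

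Genes of axon guidance and neuronal adhesion stood on the same side, with 9 of 20 higher in both wild types and 3 of 20 in both knockouts. Efna5, an ephrin ligand, stood at percentile 23.0 and 19.9 against 47.5 and 49.6, and Unc5b, a netrin receptor, at 63.8 and 65.2 against 87.5 and 87.3. Chromatin regulators lay on the knockout side, with 9 of 17 higher in both knockouts and 2 of 17 in both wild types. They included the Polycomb members Ezh2 (94.7 and 96.4 against 81.6 and 88.4), Suz12 (97.7 and 96.1 against 96.0 and 94.3) and Ring1 (67.9 and 69.1 against 56.0 and 55.1). Cbx8 and Bmi1, also Polycomb members, were ordered the other way. Of 20 NF-kB pathway genes called in all 4 libraries, 7 (35%) ranked higher in the knockouts and 4 (20%) in the wild types. These are near the shares over all genes, 29.6% and 20.7%. Traf1, an adaptor induced by NF-kB, stood at 71.0 and 60.8 against 4.17 and 26.0, while Relb and Map3k14 (the kinase NIK), of the non-canonical branch, ranked slightly higher in the wild types (Relb 96.4 and 97.8 against 99.1 and 98.2). All 22 genes of known AIRE partners were called in all 4 libraries, with 8 higher in the knockouts and 5 in the wild types, near the shares over all genes.

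**Figure D5:**
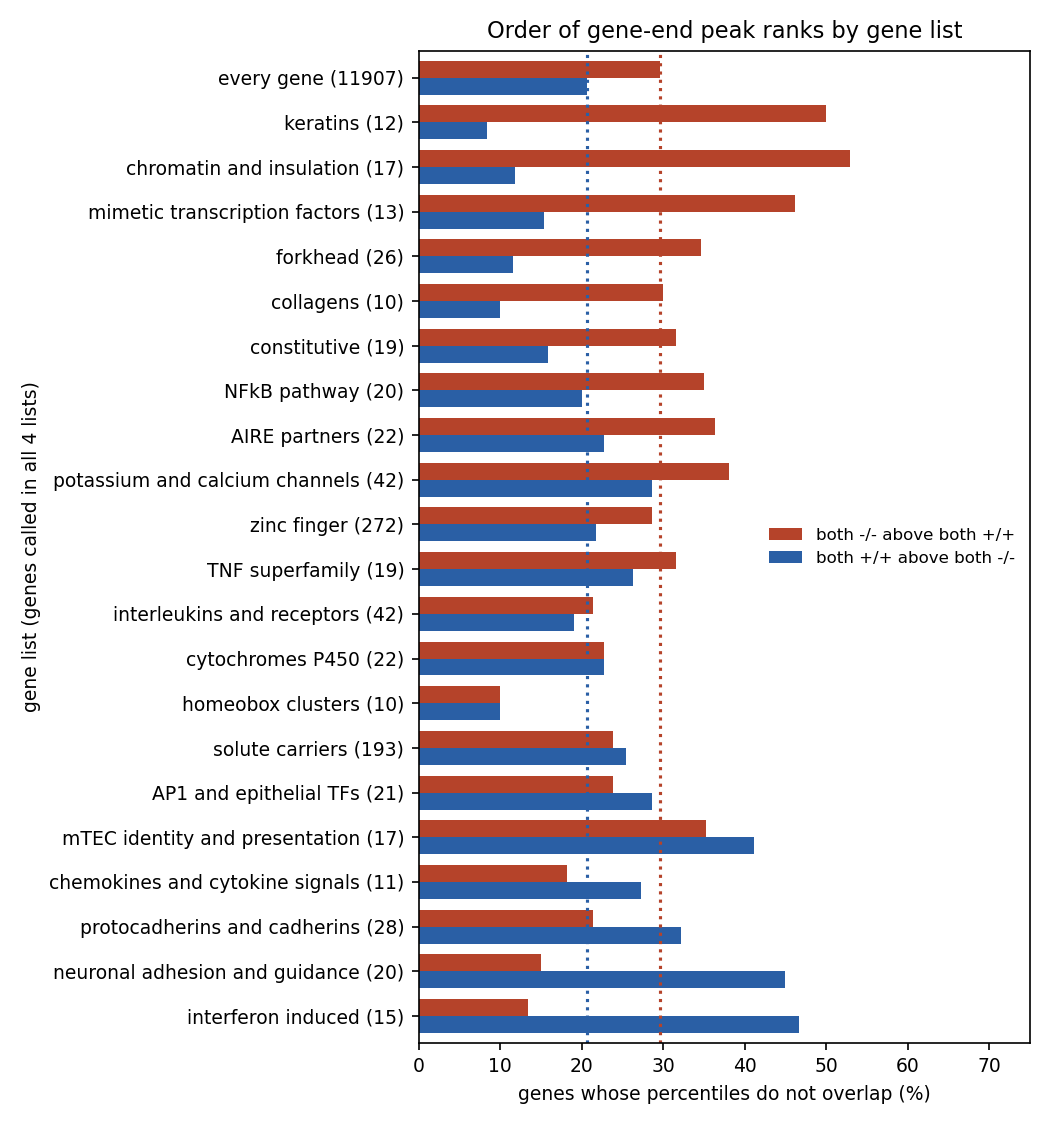
Share of genes (horizontal axis, %) whose gene-end peak ranks higher in both knockouts than in both C442G-set wild types, or the reverse, for all 11907 genes called in all 4 libraries and for the 21 lists with 10 or more such genes. Dotted lines mark the shares over all genes, 29.6% and 20.7%; interferon-induced and axon guidance genes exceed the wild-type line, and keratins and chromatin regulators the knockout line.

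The largest separations of rank among these genes were chosen after the data had been seen, and they are given as a description. Higher in the knockouts were Fam217b (percentile 80.1 and 68.4 against 19.2 and 8.16), Bend7 (80.6 and 69.7 against 20.1 and 23.4) and Scn8a, a voltage-gated sodium channel gene (86.2 and 72.2 against 26.7 and 26.0). Nccrp1 stood at 73.0 and 68.9 against 25.7 and 27.3, and no other wild type had a gene-end peak there. Higher in the wild types were Mxi1, a MAX-binding repressor gene (14.04 and 21.1 against 71.7 and 67.5), Ogdhl (38.1 and 23.8 against 86.0 and 82.4) and Kmt5b, a histone H4 methyltransferase gene (29.996 and 39.3 against 86.7 and 82.3). Each of these genes had a gene-end peak in all 4 libraries, and the 4 peaks shared at least 1 base. Fold differed too, from 5.90 and 5.23 to 3.22 and 3.15 at Fam217b and from 3.797 and 3.56 to 8.005 and 7.56 at Ogdhl.

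Of 18 autosomal antigen genes listed as needing AIRE for their thymic expression, 0 had a gene-end peak of 1 pair only. At shares of 0.537% and 1.19% over all genes, that is no more than the background. Of the 18 genes, 11 had no gene-end peak in any of the 4 lists, among them Ins2 (insulin), Mup4 (a urinary protein) and Csn1s1 (a casein). Of all 20665 coding genes, 6345 had none. The 4 libraries (knockout 1 and 2, then C442G-set wild type 1 and 2) had 5, 6, 5 and 6 of the 18. Over all 20665 genes they had 12880, 13044, 13118 and 13266. Chrna1, a muscle acetylcholine receptor subunit, stood at percentile 55.5 and 73.1 in the knockouts against 45.8 and 23.2, and Fabp9 at 42.5 and 51.9 against 33.7 and 28.5. S100a8 was ordered the other way, at 52.7 and 51.7 against 75.8 and 56.0. Tg, the thyroglobulin gene, had a weak peak in 1 library of each group. Another list of 14 genes held Fezf2 and antigens listed as independent of AIRE or dependent on Fezf2. Gad1 is in both lists, so the lists are not fully separate. None of the 14 was one-sided, and none of the 6 called in all 4 libraries was separated in rank. Fezf2, one of the 6, stood at 43.2 and 33.2 against 33.3 and 21.2.

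Lists of the thymic mimetic cells, mTEC that take on programs of peripheral tissues, held few genes of 1 pair only. Lypd3, a surface protein of keratinising epithelium, was wild-type-only in the corneocyte-like list (1 of 18), with fold 4.15 and 6.17. Both Aire +/C313Y libraries also had it, and no other wild type did. Of 5 corneocyte-like genes called in all 4 libraries, Krt1, Dsg1a and Grhl3 ranked higher in both knockouts. Ccl20, the chemokine that attracts CCR6-bearing cells and a product of microfold cells, was wild-type-only (1 of 10), with fold 6.34 and 5.001 at percentile 73.3 and 51.5. It was also called in all 4 heterozygotes and in 1 KO-set wild type. In the same list, Spib, the transcription factor of microfold cells, ranked higher in the knockouts at 83.9 and 85.9 against 74.9 and 83.5. Of the 13 mimetic-cell transcription factors called in all 4 libraries 6 (46.2%) ranked higher in the knockouts and 2 (15.4%) in the wild types, against 29.6% and 20.7% of all genes. Among the 6 were Grhl1 (99.4 and 98.5 against 96.1 and 97.3) and Insm1 (75.9 and 77.6 against 61.1 and 58.4). The 2 were Myod1, the muscle determination factor, and Cdx2, an intestinal factor. The exocrine pancreas list had 2 knockout-only genes of 15, Ctrb1 (chymotrypsinogen) and Clps (colipase), with fold between 3.21 and 3.75, against 0.537% of all genes. Clps also had a peak in a complete C442G-set list and was called in 1 other wild type and 3 heterozygotes. The Ctrb1 peaks lay at different places in the 2 libraries. Tuft, muscle, neuroendocrine, liver and gut, and ciliated lists held none.

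The 111 knockout-only genes were weakly marked. Of the 69 genes named in either direction 8 kept their call in all 9 alternative settings: Dynlt1b, H4c17, Trpv3, Krt5, Ccl20, Chd2, Klhl40 and Slc30a10. A −log10 q of at least 3 alone ended the call of 43. The lower of a gene's 2 percentiles had a median of 18.5 and passed 50 in 8 genes. Leaving out 1 of the 4 libraries gave 223 to 347 genes. In 84 of the 111 both peaks lay in knockout-only regions. In 23 neither did: either a C442G-set wild type had a peak in the same merged region that stopped short of the 1 kb window, or the peaks of the 2 knockouts lay apart. Adcy4, an adenylyl cyclase gene with fold 8.80 and 7.56, belongs to the 23. Behind Dynlt1b, H2ac23 and H4c17, which share 1 peak, and Adcy4, the ranking held Drc7, a gene of the sperm flagellum (fold 4.45 and 5.58), Defb33, a beta-defensin gene (fold 4.34 and 5.95), and Pdcd1lg2. Marco, a macrophage scavenger receptor gene (fold 4.07 and 4.48), Lmx1b, a LIM-homeobox gene of limb and neuron patterning (fold 4.50 and 4.43), and Slc39a5, a zinc transporter gene (fold 4.03 and 4.43), followed, as did Enthd1. Both Aire +/C442G libraries had a gene-end peak at Marco, Lmx1b, Slc39a5 and Enthd1 too. Wnt11, a ligand of non-canonical Wnt signalling (fold 3.94 and 4.52), was called in both KO-set wild types, so it did not separate the knockouts from the wild types of their own set. Of the 111 genes 24 (21.6%) had a gene-end peak in at least 1 KO-set wild type and 60 in both Aire +/C442G libraries. In 49 no other wild type had one.

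The 245 wild-type-only genes had a median lower percentile of 18.6, and 25 passed 50. Leaving out 1 library gave 436 to 543 genes. In 195 both peaks lay in wild-type-only regions and in 37 neither did. The 6 genes that led the ranking were all of the latter kind: at Tsga10, Tmem91, Apoa5, Ptges, Zfp688 and Gnb1l the knockouts also had a peak in the merged region, outside the 1 kb window. Tsga10 stood at percentile 96.2 and 98.1 in the wild types, and its call therefore reflects the extent of a peak. Trpv3, a heat-sensitive channel gene of keratinocytes, led the genes whose regions were wild-type-only, with fold 5.99 and 8.67 at percentile 74.3 and 88.1. It was called in 8 of the other 8 libraries, so the 2 knockouts were the only libraries of the 12 without it. Chd2, a chromatin remodeller gene (fold 4.74 and 3.78), Klhl40, a muscle gene (fold 4.81 and 5.95), and H1f6, a linker histone gene of testis (fold 4.44 and 4.43), followed, none of them called in a KO-set wild type. The Klhl40 peaks lay beyond the annotated end of that gene and also reached a wild-type-only start window of Hhatl. St6gal1, a sialyltransferase gene, had a weaker peak in a complete knockout list. Of the 245 genes 41 (16.7%) had a gene-end peak in at least 1 KO-set wild type, 165 in both Aire +/C442G libraries and 3 in all 4 other wild types. In 99 no other wild type had one.

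Several gene families held more wild-type-only than knockout-only members, as did the genome as a whole (1.19% against 0.537%). Of 42 collagen genes 4 were wild-type-only (Col27a1, Col25a1, Col5a2 and Col9a3) and 1 knockout-only (Col11a1). The number of collagen genes with a gene-end peak was 13 and 14 in the knockouts and 20 and 19 in the C442G-set wild types. Over all 20665 genes it was 12880 and 13044 against 13118 and 13266. Among the 10 collagens called in all 4 libraries, however, 3 ranked higher in both knockouts and 1 in both wild types. Of 51 serpins of clades A and B, protease inhibitors, 2 were wild-type-only (Serpinb2 and Serpina5) through peaks that do not overlap between the 2 wild types, while other start windows of Serpinb2 were knockout-only. The serpins gave 11 and 9 marked genes in the knockouts against 16 and 16. Keratins gave 3 wild-type-only genes (Krt5, Krt80 and Krt19) and 1 knockout-only gene (Krt75) of 49. Among the 12 keratins called in all 4 libraries, however, 6 ranked higher in both knockouts and 1 in both wild types. Krt80 had fold 3.67 and 4.07, and Krt19, a simple epithelial keratin, fold 3.29 and 3.89. Of 41 forkhead factors Foxe1, a thyroid factor, and Foxe3, a lens factor, were wild-type-only. Solute carriers gave 6 wild-type-only and 2 knockout-only genes of 333, and protocadherins and cadherins 4 and 1 of 95. Of 39 homeobox-cluster genes 2 were knockout-only (Hoxb4 and Hoxa13, fold 3.02 to 3.69) and none wild-type-only. Olfactory receptors, of which 1068 had no gene-end peak in these lists, gave 2 knockout-only genes (Olfr520 and Olfr98) and 1 wild-type-only gene (Olfr536) of 1104. The peaks at Col27a1 stood at percentile 61.5 and 37.9, and those at Col5a2 at 5.06 and 17.8.

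Single members of other lists are given for completeness. Knockout-only were Dcc, a netrin receptor gene, Ets1, Cyp26a1, which encodes a retinoic acid hydroxylase, Cacna1e, Tnfrsf26, Zfp821, Slc12a8 and Pcdh12. At Dcc, Ets1, Pcdh12 and Cacna1e the peaks of the 2 knockouts lay apart, as did those of the 2 wild types at Kcne1 and Col9a3. Wild-type-only were Il1f6 and Il22ra1, an epidermal cytokine and an epithelial receptor of interleukins, Cyp2g1, Kcne1 and Zfp334, together with Pcdhb1, Pcdhb13, Pcdh20 and Cdh8. Fold ranged from 2.999 to 4.58 in the former group. Lists with 0 genes of either pair included NF-kB pathway, AIRE partners, interferon-induced, chromatin, tuft, ciliated and constitutive genes.

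Markers of other cells that a sort could carry over were marked in part in both groups. Of all 20665 coding genes, 12880 and 13044 had a gene-end peak in the knockouts and 13118 and 13266 in the C442G-set wild types. The counts below are to be read against these, since a gene-end peak alone does not mark the presence of a cell type. T-cell markers had a gene-end peak in 7, 6, 6 and 5 of 16 genes (knockout 1 and 2, then C442G-set wild type 1 and 2), with Cd4, Cd247, Lat, Tcf7 and Bcl11b called in all 4 libraries (Bcl11b at percentile 69.0, 67.9, 87.1 and 81.6) and Lck, Rag1, Rag2, Zap70, Cd8a and Cd3e at none in any list. B-cell markers had 3, 5, 3 and 3 of 8, with Ebf1 (89.6, 69.3, 95.1 and 95.0) and Blk (90.6, 89.9, 98.3 and 91.5) called in all 4 and Pax5 and Ms4a1 at none. Dendritic and macrophage markers had 7, 7, 9 and 8 of 14, with Xcr1, Clec9a, Flt3, Batf3, Zbtb46 and Cd68 called in all 4, and Itgam was wild-type-only. Endothelial markers had 2, 1, 3 and 5 of 10, with Erg (76.1, 75.1, 67.0 and 65.7) called in all 4, Pecam1, Cdh5 and Vwf at none and Tek wild-type-only through peaks at different ends of the gene. Fibroblast markers had 6, 8, 8 and 7 of 12, and cortical epithelial markers 6, 7, 6 and 7 of 10. A marker at none can still hold a peak further inside the gene, which the gene-end measure misses. The part of other cells in the differences above was not tested. In bulk chromatin, fewer cells with an open site and less openness per cell cannot be told apart.

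Promoters of 1 pair only differed in base composition from those open in all 4 libraries. Of 31396 RefSeq windows from 250 bases before to 50 after a start, 133 (0.424%) had a peak in both knockouts alone and 398 (1.27%) in both C442G-set wild types alone. Of these, 100 and 275 touched a region of the same class. The others touched none. At Epcam, for example, both wild types had a wide peak over the start and the knockouts had a peak within 1 kb that did not reach the window. Median GC content was 57.7% in the knockout-only, 54% in the wild-type-only, 62.3% in the shared and 47.3% in the unmarked windows, and the median number of CpG dinucleotides 12, 8, 22 and 3. The AP-1 motif (TGANTCA, both strands) was found in 15.3% of wild-type-only, 6.02% of knockout-only, 4.64% of shared and 7.84% of all windows. The promoter of Trpv3 above is one of the wild-type-only windows with this motif. NF-kB motifs were found in 15.8% of knockout-only, 9.30% of wild-type-only, 11.4% of shared and 8.55% of all windows, and TATA boxes in 15.8%, 9.30%, 5.77% and 13.6%. GC boxes were found in 46.6%, 35.4%, 69.1% and 36.0%, and CCAAT boxes in 31.6%, 34.2%, 39.0% and 37.3%. These shares are descriptions and were not tested.

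Of 919 autosomal miRNA hairpins, 149 had a peak within 1 kb in all 4 libraries, 13 (1.41%) in both knockouts alone and 9 (0.979%) in both C442G-set wild types alone. The miRNAs shown are those with a well-known role in epithelial or developmental programs, chosen after their calls were seen. Mature sequences are from RefSeq, with the seed, bases 2 to 8, in capitals. Mir200a and Mir200b, whose products maintain the epithelial state by repressing Zeb factors, and the let-7 member Mirlet7g, whose product restrains growth programs, stand beside Mir153, a neuronal miRNA.
miR-200a-3p: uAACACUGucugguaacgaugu
miR-200b-3p: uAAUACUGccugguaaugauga
miR-200a-5p: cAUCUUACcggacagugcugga
miR-200b-5p: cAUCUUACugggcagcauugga
let-7g-5p: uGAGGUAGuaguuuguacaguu
miR-153-3p: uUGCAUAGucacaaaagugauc
Both miR-200 hairpins (chr4:156054896-156054985 and chr4:156055681-156055750, minus strand) were wild-type-only through 1 weak peak in each wild type, with fold 2.40 and 2.91 at percentile 0.836 and 17.9, and the 2 peaks do not overlap. Their 5p products share the seed AUCUUAC, and the seeds of their 3p products differ. A peak within 1 kb was also called in 2 of 4 other wild types and 3 of 4 heterozygotes. Mirlet7g (chr9:106178840-106178927) was knockout-only, with fold 3.04 and 3.36 from peaks on opposite sides of the hairpin, and no other library had one. Mir153 (chr12:117250817-117250885) was knockout-only through overlapping peaks across the hairpin, with fold 4.02 and 4.00 at percentile 44.0 and 36.1. It was called in 2 of 4 heterozygotes and in 0 of 4 other wild types. The other one-pair hairpins are not described, since a call at the 1 kb edge can reflect how far a shared peak extends.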

How the data were processed

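ATAC-seq libraries of sorted mTEChi were processed with cutadapt, Bowtie2, Picard and MACS2 on mm10, per the submitters' processing notes; parameters, and whether peaks were called per sample, were not given in the sources used here, but 1 list was deposited per library. In each deposited list the authors give a peak's score, its fold enrichment (a ratio over background), −log10 p and −log10 q. Per the file headers there are no read counts, so depth and sampling intervals could not be given.

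From these lists, peaks on chromosomes 1 to 19 were ranked by −log10 p and the strongest 85000 kept; knockout replicate 1 held 84037 and was used whole. Peaks overlapping by 1 bp or more were merged. Genes were 20665 autosomal coding genes of RefSeq GRCm38.p6, and a gene-end peak lay within 1 kb of either end. Named were Aire, the 12 genes of each direction with the highest lower percentile of both peaks (predicted symbols left out), the 8 highest absent from the other group's complete lists, up to 4 members of each gene list in each direction, and the 8 highest-ranked regions absent from the other group's complete lists. Library measures were compared by exact two-sided permutation tests, which with 2 against 2 libraries cannot go below p = 0.333. Members and lists were chosen with earlier results of these data known; rank order, C313Y ratios, promoter windows, miRNAs, strength tiers and chromosome windows were added after seeing the data. Same-numbered libraries did not deviate together (correlation 0.00535), so numbers were not treated as pairs. Scripts were checked on simulated data (Python 3.11.15, numpy 2.4.6, pandas 2.3.3, scipy 1.17.1). Chromosomes X and Y were left out of the comparisons.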

Additional observations from a re-analysis of the deposited data

Results flagged for a closer look

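On chromosome Y, which entered no comparison, the list of knockout replicate 2 held 21 peaks, against 2 in knockout replicate 1 and 4 and 4 in the C442G-set wild types. It is given here because it is a signal outside the main measurement and above these 2 controls. Other wild types held 2 and 9 (KO set) and 200 and 45 (C313Y set), and the Aire +/C442G libraries 27 and 23, so the value is not above wild types in general.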

How the results depend on the processing

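With the strongest 60000 peaks, wild-type-only regions numbered 4757, the near-end gap of regions was −0.335 points, the KO-set wild-type gap −5.84, the Aire +/C442G gap −2.52, and the near-end gap of peaks 0.188, a reversal. Ranked by fold, the near-end gaps reversed to 1.21 (regions) and 0.310 (peaks), and the KO-set gap was −1.50. A −log10 q of at least 3 left 1278 knockout-only regions, 72 knockout-only and 409 wild-type-only genes. Absence judged in complete lists gave an Aire +/C442G gap of −8.19, and windows of 500 bp gave 13530 wild-type-only regions. The causes were not tested.

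Leaving out 1 library at a time gave 6912 to 21884 knockout-only and 11886 to 19983 wild-type-only regions, 223 to 347 and 436 to 543 genes, and 4778 to 5419 and 3770 to 4163 genes ranked higher in the knockouts and wild types; calls then rest on 1 library of a pair, so counts rise by construction. The near-end gap of regions ranged from −3.68 to 0.214, that of peaks from −0.445 to 0.0276, the KO-set gap from −12.7 to 4.67 (2.40 without C442G-set replicate 1) and the Aire +/C442G gap from −56.9 to 20.7 (16.5 without C442G-set replicate 1). Width and covered length kept their direction (−36 to −23 bp, −4.58 to −3.12 Mb). With a replicate block the exact permutation p of the 3 library measures was 0.5, the smallest it can give, and the block changed no count. Of 69 named genes 43 lost their call at a −log10 q of at least 3, 36 with the strongest 60000, and 30 and 28 with gene windows of 500 and 2500 bp. Rank counts over genes whose leading peaks shared a base, added after seeing the data, were 3254 and 2245. Without read counts, an uncalled site may be shallow rather than closed.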

Other observations

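Wild-type-only regions were unevenly spread along the chromosomes. Between 14 and 16 Mb of chromosome 5, a stretch with 3 Speer genes (a rodent family expressed in testis) among its 11 coding genes, 49 regions were wild-type-only and 1 knockout-only. Of the 49, at least 1 Aire +/C442G library called 32, any C313Y-set library 12 and the KO-set wild types 2. The ratio of knockout-only to wild-type-only regions per chromosome ranged from 0.420 on chromosome 4 (251 and 597) to 0.696 on chromosome 1 (396 and 569). These windows were chosen after the data had been seen.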
